A study of Homo sapiens with 18 samples.

Results

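The genes described here are 10 that encode AP-1 proteins and close relatives with a basic leucine zipper (bZIP): FOS, FOSB, FOSL1, FOSL2, JUN, JUNB, JUND, ATF3, MAFF and MAFK. They were chosen by name from the 36684 gene symbols of the count table, and all 10 passed the filter on low counts that left 14557 genes to test. Their mRNA was measured by RNA-seq in Hep3B, a human hepatoma cell line, in 6 groups of 3 libraries. Con cells received no free fatty acids (FFA), and Model cells received FFA, which load hepatocytes with lipid. The FUCO-0.5, FUCO-1 and FUCO-2 groups received FFA together with fucoxanthin (FUCO), a carotenoid of brown algae, at 0.5, 1 and 2 μM. The RES group received FFA together with Resmetirom (RES), an agonist of the thyroid hormone receptor beta. All groups other than Con therefore share the FFA treatment, and the study set FUCO and RES against the Model to ask what they do to a steatotic hepatocyte. The study's methods name the libraries of a group biological replicates. The FFA concentration, the treatment times and the RES dose of these libraries, and whether the replicates were separate cultures, are not given in the sources used here, so p-values measure the spread between these libraries.

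AP-1 is a family of transcription factors rather than a single protein. FOS proteins cannot pair with themselves and bind DNA as partners of JUN proteins, while JUN proteins can also pair among themselves, and the dimers bind the AP-1 site TGACTCA or the related cAMP response element (CRE) TGACGTCA. Small MAF proteins lack an activation domain and pair with factors such as NFE2L2. Many of these genes are immediate early genes: growth factors, stress kinases and lipids switch them on within minutes through factors already present in the cell, and their mRNAs are short-lived. In the liver they are known for their induction during regeneration, inflammation and stress.

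The promoters of the 10 genes were searched for the CRE and related motifs, and for each of the 8 genes with an entry the stretch around 1 match is printed here so that the letters can be compared. For FOS, FOSB, FOSL2 and JUNB this match is the short TGACG alone. The RefSeq promoter table for GRCh38.p14 (250 bases before and 50 after each start) held 10 promoters of 8 of the 10 genes. FOSL1 and MAFK have no entry. TGACGTCA was found in JUND and MAFF, and the variant TGACATCA in JUN and in the upstream promoter of ATF3. TGACG, the opening letters of the CRE and so contained in it, was found on either strand in 7 of the 8 genes, all but ATF3. Neither ATF3 promoter held it, nor did the downstream promoter of MAFF, and the shares below count promoters rather than genes. This shorter motif was added after the CRE had been found in few of the windows. The AP-1 site TGACTCA lay in FOSL2, at bases 5 to 11 after the start, and the CArG box, the binding site of SRF, in none of the 10 windows. Sites more than 250 bases before a start or 50 after it were not searched, so a gene may hold such a site outside its window. Among all 35116 promoters of the table, 24.6% held TGACG, 1.85% TGACGTCA, 2.61% TGACATCA, 4.95% TGACTCA and 1.29% a CArG box, all searched on both strands. Capitals mark the motif. Counted from the start site, where −1 is the last base before it, the motif begins at −64 in FOS, −60 in FOSB, −66 in FOSL2, −67 in JUN, −137 in JUNB, −200 in JUND, −123 in ATF3 and −54 in MAFF. The stretches lie at chr14:75278738-75278794 (FOS, plus strand), chr19:45467910-45467966 (FOSB, plus strand), chr2:28392766-28392822 (FOSL2, plus strand), chr1:58784081-58784140 (JUN, minus strand), chr19:12791323-12791379 (JUNB, plus strand), chr19:18281789-18281848 (JUND, minus strand), chr1:212565258-212565317 (ATF3, plus strand) and chr22:38201914-38201973 (MAFF, plus strand).
FOS: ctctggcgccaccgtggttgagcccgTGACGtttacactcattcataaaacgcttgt
FOSB: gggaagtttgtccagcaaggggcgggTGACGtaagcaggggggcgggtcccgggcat
FOSL2: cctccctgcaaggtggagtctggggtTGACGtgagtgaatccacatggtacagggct
JUN: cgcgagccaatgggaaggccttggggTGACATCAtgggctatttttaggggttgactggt
JUNB: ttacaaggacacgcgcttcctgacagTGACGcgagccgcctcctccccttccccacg
JUND: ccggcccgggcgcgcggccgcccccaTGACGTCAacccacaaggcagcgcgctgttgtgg
ATF3: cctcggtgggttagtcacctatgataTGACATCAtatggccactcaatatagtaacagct
MAFF: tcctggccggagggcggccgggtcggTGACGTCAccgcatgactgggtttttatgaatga
A match is a description of the letters and was not tested for binding in these cells.

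Each library held between 16916688 and 23083498 counts. Levels are given as CPM (library sizes scaled by TMM), and group values as mean ± SD of 3 libraries. Con replicate 1, FUCO-0.5 replicate 2, FUCO-1 replicate 3 and FUCO-2 replicate 1 stood apart from both other libraries of their groups, with a chi-square per degree of freedom over genes of 10 to 19.3, against at most 6.99 for all other pairs within a group. Calls that change without these 4 together are given beside the results they touch. All 9 hepatocyte markers examined (ALB, AFP, APOA1, APOB, TTR, SERPINA1, FGB, TF and HNF4A) were present in every library. Of 6 markers of other cells, COL3A1 and ACTA2 had no count in any library, PTPRC had at most 2 and CD68 at most 7, while PECAM1 (3 to 36 counts) and COL1A1 (12 to 56) were detected in every library. In bulk RNA, fewer cells that express a gene and less of its RNA per cell cannot be told apart.

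Per kilobase of transcript, JUND was the most abundant of the 10 genes in Con (310.7 CPM per kb), followed by JUN (142.7) and FOS (142.5), whose libraries overlapped. JUNB and ATF3 overlapped at 66.8 and 66.3 CPM per kb, FOSB had 37.4, MAFF 21.2 and MAFK 10.2, and FOSL2 (1.19) and FOSL1 (0.544) were last. In the Model, ATF3 reached 105.2 CPM per kb and lay above JUNB (69.6) without overlap. With FUCO-1, ATF3 stood at 20.3 CPM per kb, below JUNB at 42.6 and overlapping FOSB at 19.0. The JUN family (JUN, JUNB and JUND) was more abundant than the FOS family (FOS, FOSB, FOSL1 and FOSL2) in every group, with a FOS to JUN ratio of the summed CPM per kb of 0.358 ± 0.113 in Con, 0.468 ± 0.0464 in the Model and 0.596 ± 0.0679 in RES. JUN made up 27.5% ± 1.19 of the JUN family in Con and 38.3% ± 1.78 in the Model, and JUND 59.7% ± 0.834 and 48.8% ± 2.60.

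FOS, the founding partner of JUN, maps to chr14:75278828-75282230 and has 4 exons in its canonical transcript. It measured 238, 316 and 345 CPM in Con replicates 1 to 3, 400.4, 355 and 458 in the Model and 411, 557 and 416 in RES. With FUCO it measured 258, 223 and 197 CPM at 0.5 μM, 217, 178 and 218 at 1 μM and 312, 198 and 317 at 2 μM. The RES and Model libraries overlapped at the top, the Model lay above Con without overlap, and Con and the 3 FUCO groups overlapped in a chain below.

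FOSB (chr19:45467996-45475179), a paralog with the same partners, ranged more widely among Con libraries, at 77.6, 162 and 184 CPM, than in the Model, at 231, 218 and 212. At the lower doses of FUCO its libraries held 102, 85.9 and 63.3 CPM (0.5 μM) and 79.6, 61.7 and 73.9 (1 μM), all below the Model. FUCO-2 libraries held 118, 85.1 and 158 CPM and RES libraries 144, 230.0 and 186, the latter overlapping the Model.

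FOSL1 (FRA1, chr11:65892049-65900545) and FOSL2 (FRA2, chr2:28392858-28417317) are the late FOS relatives, which usually follow FOS in time. FOSL1 was scarce, with 0.867, 0.776 and 1.14 CPM in Con, 0.987, 1.78 and 1.68 in the Model, 0.659, 1.46 and 1.79 with FUCO-0.5, 1.34, 1.58 and 1.03 with FUCO-1 and 1.94, 1.51 and 0.700 in RES. Its FUCO-2 libraries, at 4.72, 4.84 and 2.95 CPM (82, 91 and 51 counts), stood above all 15 others. FOSL2 measured 8.73, 7.64 and 7.57 CPM in Con, 9.60, 11.3 and 8.07 in the Model, 5.43, 5.86 and 7.37, 4.66, 7.21 and 6.23 and 10.5, 9.53 and 7.69 at the rising doses of FUCO, and 7.27, 9.10 and 7.51 in RES. For FOSL2 all neighbouring groups in the order of means overlapped. FOSL2-AS1, which overlaps FOSL2, had at most 1 count in a library.

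JUN, the partner common to the FOS proteins, is a single-exon gene at chr1:58780791-58784047. Its libraries measured 533, 430.4 and 431 CPM in Con, 677, 666 and 678 in the Model and 538, 593 and 512 in RES. With FUCO they measured 385, 307 and 335 CPM at 0.5 μM, 283, 279 and 325 at 1 μM and 416, 314 and 424 at 2 μM. The Model stood above RES and Con, which overlapped, and all 9 FUCO libraries lay below all of Con.

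JUNB (chr19:12791486-12793315), which often opposes JUN, and JUND (chr19:18279694-18281622), whose mRNA is present in most resting cells, have single exons too. JUNB measured 139.8, 105 and 122 CPM in Con, 128, 116 and 138 in the Model and 126, 162 and 124 in RES, against 77.9, 61.0 and 75.6 with FUCO-0.5, 79.2, 72.5 and 82.3 with FUCO-1 and 146, 115 and 94.0 with FUCO-2. RES, Model, Con and FUCO-2 formed an overlapping upper set, and FUCO-1 and FUCO-0.5 lay apart below it. JUND was highest in Con, at 684, 525 and 589 CPM, and overlapped the Model, at 569, 485 and 473. RES (386, 418 and 401 CPM), FUCO-2 (457, 352 and 338), FUCO-0.5 (307, 304 and 407) and FUCO-1 (301, 335 and 343) all lay below the Model. JUNB overlaps HOOK2, which had 1367 to 3009 counts a library. Whether counting used the strand is not stated, so reads shared by overlapping genes are uncertain.

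ATF3 (chr1:212565407-212620777) is induced by many stresses and as a homodimer represses transcription. It measured 157, 116 and 112 CPM in Con and 185, 238 and 189 in the Model, without overlap. Its libraries held 46.0, 53.6 and 46.9 CPM with FUCO-0.5, 38.3, 42.5 and 37.4 with FUCO-1, 75.5, 98.1 and 101 with FUCO-2 and 153, 166 and 130.5 with RES. In the order Model, RES, Con, FUCO-2, FUCO-0.5, FUCO-1, the only overlap between neighbours was that of RES and Con.

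MAFF (chr22:38201994-38216511) and MAFK (chr7:1530702-1543043) are the small MAF genes. MAFF measured 63.5, 43.8 and 44.1 CPM in Con, 59.1, 80.0 and 62.1 in the Model and 45.8, 33.1 and 38.6 in RES, with 29.8, 36.8 and 35.1, 31.3, 44.9 and 35.6 and 48.4, 69.9 and 46.7 at the rising doses of FUCO. MAFK was steady in Con, at 35.4, 34.5 and 33.7 CPM, and measured 53.6, 61.9 and 45.7 in the Model, 35.7, 34.8 and 37.5 in RES and 30.9, 28.5 and 35.6, 31.8, 40.0 and 37.4 and 55.8, 44.6 and 36.4 with FUCO. Both had their highest mean in the Model, and for both all neighbouring groups in the order of means overlapped. MAFF overlaps TMEM184B (2430 to 3554 counts a library) and MAFK overlaps TMEM184A (1659 to 3709 counts), with the same uncertainty as for JUNB.

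**Figure D1:**
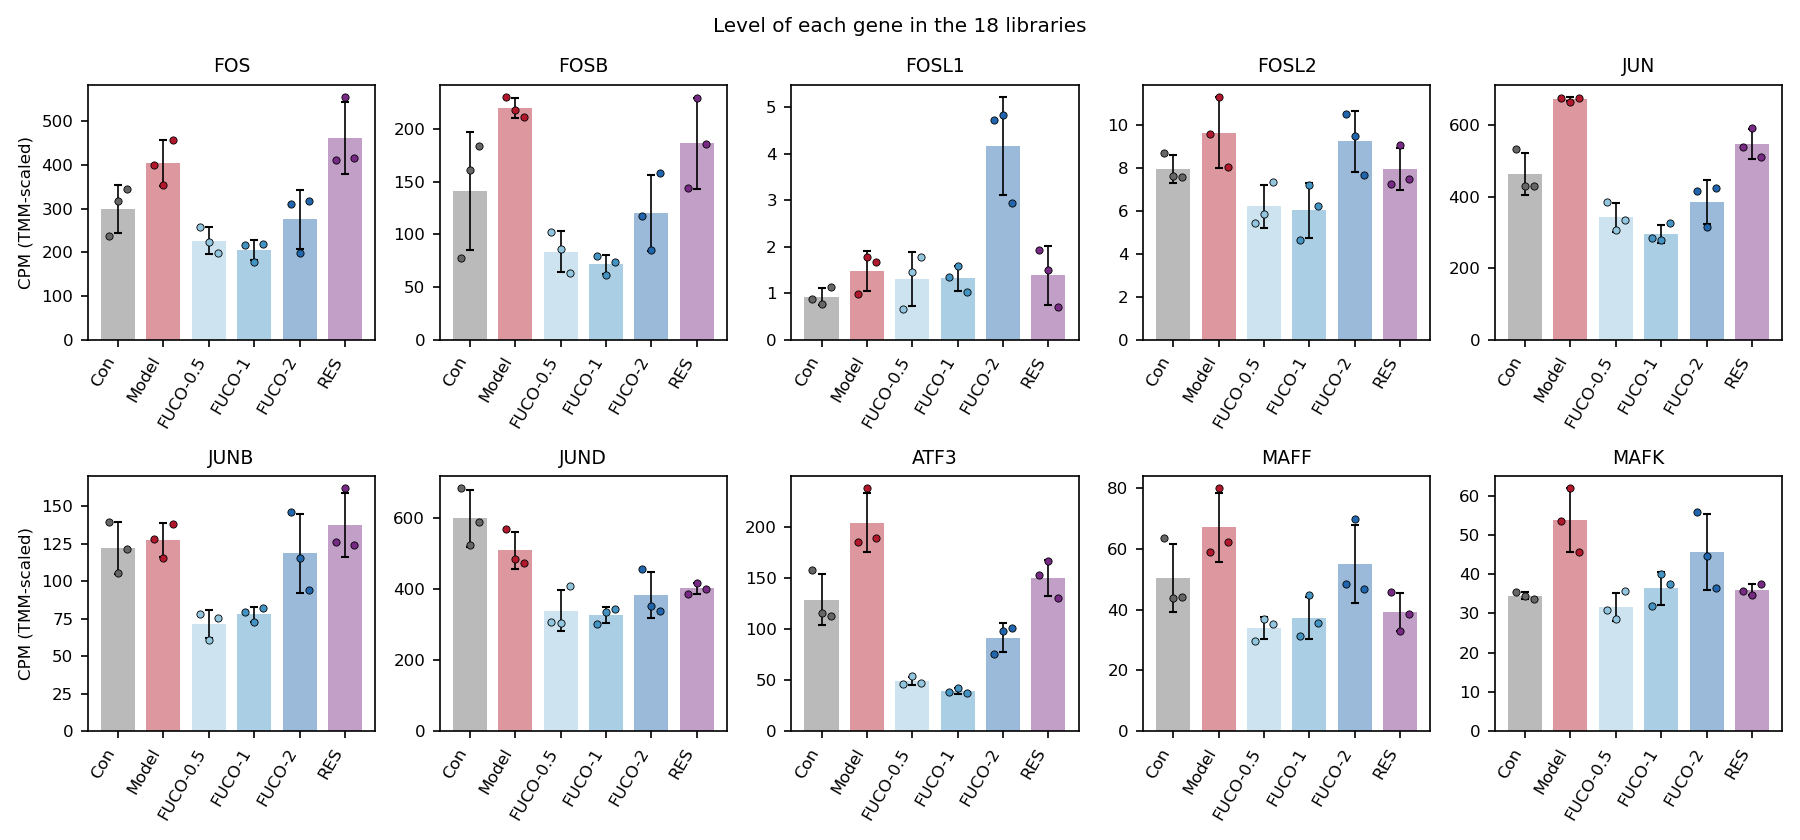
Level of each of the 10 genes, in TMM-scaled CPM on a linear axis from 0, in the 6 groups. Bars are means of 3 libraries, error bars are SD and points are single libraries. FUCO-0.5 and FUCO-1 lie below the Model for 9 of the genes, while FOSL1 stands out at FUCO-2 with 2.95 to 4.84 CPM.

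With FFA alone, 4 of the 10 genes rose against Con, namely ATF3, FOSB, JUN and MAFK, and none fell. The log2 fold changes were 0.67 (SE 0.12, edgeR adjusted p = 0.000415) for ATF3, 0.64 (SE 0.12, edgeR adjusted p = 0.00071) for MAFK, 0.54 (SE 0.10, edgeR adjusted p = 0.000767) for JUN and 0.64 (SE 0.22, edgeR adjusted p = 0.0485) for FOSB. ATF3 was thus 1.59-fold, MAFK 1.55-fold and JUN 1.45-fold higher in the Model. Among all 14557 genes tested, 8.43% passed the test as higher. FOS, FOSB, JUN, ATF3 and MAFK did not overlap between the groups, as was the case for 35.7% of all genes. FOS had a log2 fold change of 0.43 (SE 0.15, edgeR adjusted p = 0.0541) and MAFF of 0.41 (SE 0.16, edgeR adjusted p = 0.0797), and neither passed the test. The 95% intervals of the remaining genes included 0 and were wide for FOSL1 (−0.12 to 1.45) and narrow for JUNB (−0.21 to 0.33), with JUND at −0.47 to 0.0028 and FOSL2 at −0.055 to 0.61. The median log2 fold change of the 10 genes was 0.48, and that of all genes lay between −0.0061 and 0.014 in every comparison. The call on FOSB was lost without Con replicate 1 (log2 fold change 0.35, edgeR adjusted p = 0.204), without Con replicate 2, any single Model or FUCO-1 replicate, FUCO-0.5 replicate 2 or RES replicate 3 (adjusted p from 0.0504 to 0.121), and without the 4 libraries that stand apart (0.35, adjusted p = 0.16). It was also lost with DESeq2 (adjusted p = 0.122) and by edgeR on the 2 groups only, with RLE factors or with at least 10 counts in every library (edgeR adjusted p = 0.0616, 0.0505 and 0.0511). Conversely, MAFF passed without Con replicate 1 (0.61, adjusted p = 0.00835), when FUCO-2 replicate 2 was left out (adjusted p = 0.0481) and without the 4 libraries together (0.0033), and FOS passed without Con replicate 3, Model replicate 2, FUCO-0.5 replicate 3, any FUCO-2 replicate or RES replicate 2 (edgeR adjusted p from 0.0213 to 0.0481). FOS also passed in a fit of the 2 groups only (edgeR adjusted p = 0.0274).

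**Figure D2:**
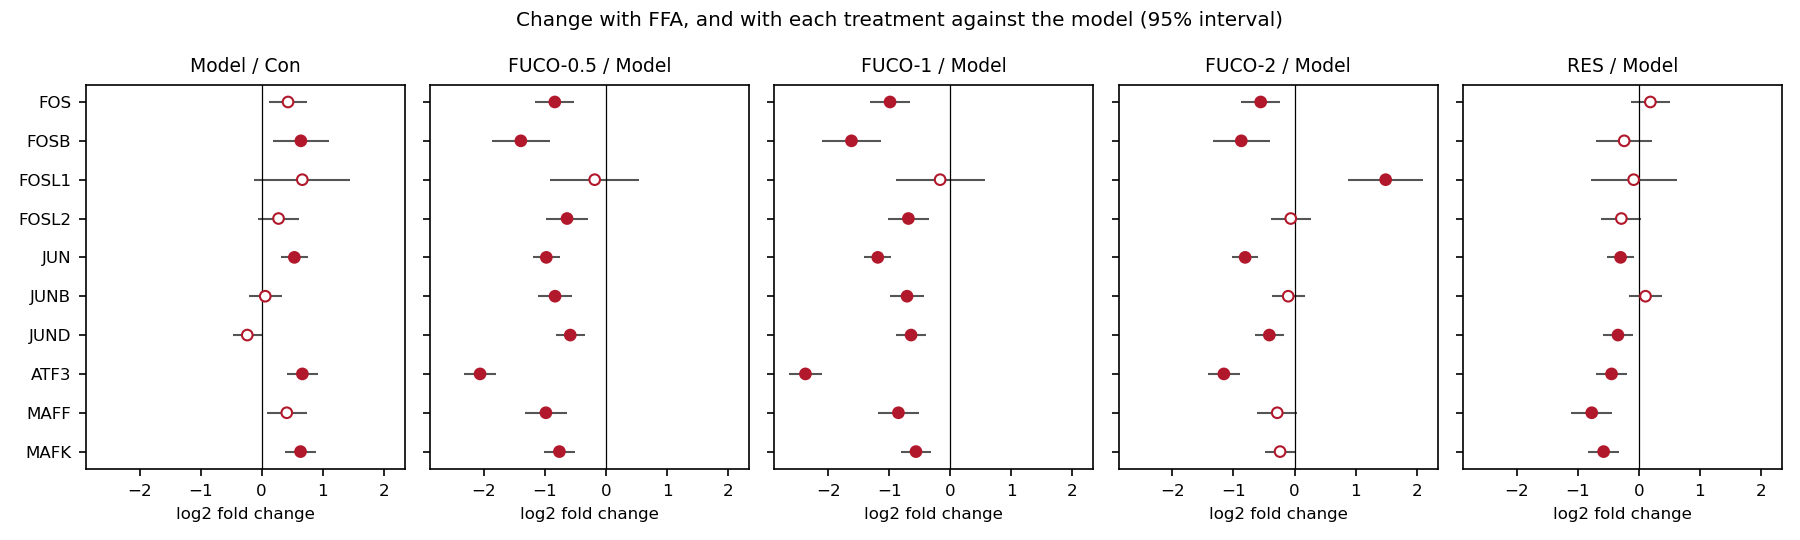
log2 fold change of the 10 genes in the Model against Con and in each treated group against the Model, with 95% intervals. Filled points passed the edgeR test (adjusted p under 0.05) and open points did not. At 0.5 and 1 μM FUCO all 10 points lie left of 0 and 9 are filled, and at 2 μM FOSL1 lies at 1.49, to the right.

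At 0.5 and 1 μM FUCO, 9 of the 10 genes were lower than in the Model, FOSL1 being the exception. ATF3 fell the most, by 4.18-fold at 0.5 μM and 5.18-fold at 1 μM, and ranked 1 and 2 among all 14557 genes by p. Its log2 fold changes were −2.06 (SE 0.13, edgeR adjusted p = 1.73e-10) and −2.37 (SE 0.13, edgeR adjusted p = 9.27e-12). At 0.5 μM, 1.16% of all genes passed the test as lower, and at 1 μM 2.32%. The Model libraries are shared by every comparison with the Model, so the doses are not independent of each other, nor of the rise with FFA. All but FOSL1, 9 of the 10 genes, had no overlap with the Model at each of these doses, against 19.6% of all genes at 0.5 μM and 23.3% at 1 μM. The median log2 fold change of the 10 genes was −0.84 at 0.5 μM and −0.78 at 1 μM.

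In the FOS family, FOSB fell by 2.63-fold at 0.5 μM and 3.07-fold at 1 μM, with log2 fold changes of −1.39 (SE 0.23, edgeR adjusted p = 0.000687) and −1.62 (SE 0.23, edgeR adjusted p = 7.57e-05). FOS fell by 1.79-fold and 1.98-fold, with log2 fold changes of −0.84 (SE 0.16, edgeR adjusted p = 0.00276) and −0.99 (SE 0.16, edgeR adjusted p = 0.000266). FOSL2 had log2 fold changes of −0.64 (SE 0.16, edgeR adjusted p = 0.0495) and −0.69 (SE 0.17, edgeR adjusted p = 0.0188). FOSL1 had −0.18 (SE 0.35, edgeR adjusted p = 0.913) and −0.17 (SE 0.35, edgeR adjusted p = 0.865), with 95% intervals of −0.92 to 0.55 and −0.89 to 0.56 that include both a fall of the size seen for FOSL2 and a rise. In the JUN family, JUN fell by 1.97-fold and 2.28-fold, with log2 fold changes of −0.98 (SE 0.11, edgeR adjusted p = 1.47e-06) and −1.19 (SE 0.11, edgeR adjusted p = 2.94e-08). JUNB changed by −0.83 (SE 0.13, edgeR adjusted p = 0.000454) and −0.71 (SE 0.13, edgeR adjusted p = 0.00186) on the log2 scale and JUND by −0.58 (SE 0.12, edgeR adjusted p = 0.00568) and −0.64 (SE 0.12, edgeR adjusted p = 0.00145). The small MAF genes fell as well, MAFF by 1.98-fold and 1.80-fold (edgeR adjusted p = 0.000814 and 0.00257) and MAFK by 1.70-fold and 1.48-fold (edgeR adjusted p = 0.000602 and 0.0086). Past a log2 fold change of 1 in size as well, as a differentially expressed gene (DEG) is defined in the study, were FOSB and ATF3 at 0.5 μM, where 0.268% of all genes were DEGs and lower, and FOSB, JUN and ATF3 at 1 μM, where 0.453% were.

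Single libraries and settings decided some of these calls. At 0.5 μM the call on FOSL2 was lost without Con replicate 2 or 3, Model replicate 1 or 2, FUCO-0.5 replicate 1 or 2, FUCO-1 replicate 3, FUCO-2 replicate 2 or any RES replicate (edgeR adjusted p from 0.0549 to 0.327), without the 4 libraries that stand apart (edgeR adjusted p = 0.0644) and among genes with at least 10 counts in every library (edgeR adjusted p = 0.0515), and that on JUND without Model replicate 1 or FUCO-0.5 replicate 1 or 2 (edgeR adjusted p from 0.0541 to 0.0672). At 1 μM FOSL2 was lost without Model replicate 1 or 2 or FUCO-1 replicate 1 or 3 (edgeR adjusted p from 0.0557 to 0.148), and MAFK without Model replicate 2 or FUCO-1 replicate 1 (edgeR adjusted p = 0.0946 and 0.0689). The other 7 genes kept their calls at 0.5 μM without any single library, and likewise 7 at 1 μM.

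Between 0.5 and 1 μM none of the 10 genes passed the test. The log2 fold change of ATF3 was −0.31 (95% interval −0.58 to −0.039, edgeR adjusted p = 0.41) and that of JUN −0.21 (−0.43 to 0.0066, edgeR adjusted p = 0.481). Of all genes, 0.00687% passed, which was 1 gene, KLF6, and 1557 had an unadjusted p under 0.05. DESeq2 passed none of the 10 genes either. The intervals leave room for differences between these doses of up to −0.72 to 0.76 for FOSL1 and of −0.15 to 0.40 for JUNB.

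At 2 μM, 5 of the 10 genes were lower than in the Model, namely FOS, FOSB, JUN, JUND and ATF3, and FOSL1 was higher. Among all genes 9.71% passed as lower and 10.8% as higher. ATF3 showed the largest fall among the 10 genes, at 91.4 ± 13.9 CPM against 204 ± 29.2, with a log2 fold change of −1.16 (SE 0.12, edgeR adjusted p = 5.11e-07). FOSB followed with −0.87 (SE 0.23, edgeR adjusted p = 0.0074), JUN with −0.81 (SE 0.11, edgeR adjusted p = 7.37e-06), FOS with −0.55 (SE 0.15, edgeR adjusted p = 0.0124) and JUND with −0.41 (SE 0.12, edgeR adjusted p = 0.0132). FOSL1 rose 2.81-fold, from 1.48 ± 0.432 to 4.17 ± 1.06 CPM, a log2 fold change of 1.49 (SE 0.30, edgeR adjusted p = 0.000919). This rise and the fall of ATF3 were the DEGs among the 10 genes, where 0.872% of all genes were DEGs and higher and 0.728% DEGs and lower. FOSB, FOSL1, JUN, JUND, ATF3 and FOS did not overlap with the Model, as was the case for 36.3% of all genes. JUNB (−0.10, 95% interval −0.37 to 0.16), FOSL2 (−0.062, −0.39 to 0.26), MAFF (−0.28, −0.61 to 0.046) and MAFK (−0.24, −0.49 to 0.013) did not pass.

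At 2 μM the calls on FOS and FOSB were lost without FUCO-2 replicate 2 (−0.36, adjusted p = 0.0958; −0.67, adjusted p = 0.0567 by edgeR), that on FOS also without Model replicate 3 (adjusted p = 0.0785 by edgeR), and that on JUND without Model replicate 1 or FUCO-2 replicate 2 or 3 (edgeR adjusted p from 0.0677 to 0.0908). MAFF passed as lower without FUCO-2 replicate 2 (−0.49, adjusted p = 0.0426 by edgeR), and MAFK without FUCO-2 replicate 1 (−0.41, adjusted p = 0.0157 by edgeR) and without the 4 libraries that stand apart (−0.40, adjusted p = 0.00633). JUNB passed as lower without the 4 libraries as well (−0.27, adjusted p = 0.0394 by edgeR).

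In the direct comparison of 2 with 1 μM, 6 of the 10 genes were higher at 2 μM. All 10 genes had a positive log2 fold change of FUCO-2 against FUCO-1, with a median of 0.58, and FOSL1, FOSL2, JUN, JUNB, ATF3 and MAFF passed the test, where 4.07% of all genes passed as higher. ATF3 was 2.32-fold higher at 2 μM (log2 fold change 1.21, SE 0.13, edgeR adjusted p = 3.74e-06) and FOSL1 3.16-fold (log2 fold change 1.66, SE 0.30, edgeR adjusted p = 0.00149). These were the DEGs of this comparison among the 10 genes, against 0.536% of all genes that were DEGs and higher. JUNB was higher by 0.60 (SE 0.13, edgeR adjusted p = 0.00658) on the log2 scale, FOSL2 by 0.62 (SE 0.17, edgeR adjusted p = 0.025), MAFF by 0.57 (SE 0.16, edgeR adjusted p = 0.0392) and JUN by 0.38 (SE 0.11, edgeR adjusted p = 0.0313). FOSB (log2 fold change 0.75, SE 0.23, edgeR adjusted p = 0.0518), FOS (log2 fold change 0.43, SE 0.16, edgeR adjusted p = 0.0994), MAFK (log2 fold change 0.32, SE 0.12, edgeR adjusted p = 0.122) and JUND (log2 fold change 0.23, SE 0.12, edgeR adjusted p = 0.272) did not pass. The calls on FOSL1, JUNB and ATF3 held without any single library.

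The other calls between 1 and 2 μM depended on single libraries or on the setting. FOSL2 was lost without FUCO-1 replicate 1 or 3 or FUCO-2 replicate 1 or 2 (edgeR adjusted p from 0.0714 to 0.141) and without the 4 libraries that stand apart (0.56, adjusted p = 0.089). JUN was lost without FUCO-1 replicate 1 or 2 or FUCO-2 replicate 1 or 3 (edgeR adjusted p from 0.0867 to 0.119) and in a fit of the 2 groups only (edgeR adjusted p = 0.0532), and MAFF without FUCO-1 replicate 1 or 3 or FUCO-2 replicate 2 (edgeR adjusted p from 0.149 to 0.289) and with DESeq2 (adjusted p = 0.0911). FOSB passed without Con replicate 1 or 3, FUCO-0.5 replicate 3, FUCO-2 replicate 2 or RES replicate 1 (edgeR adjusted p from 0.00771 to 0.0497) and without the 4 libraries (0.78, adjusted p = 0.0248), FOS without FUCO-2 replicate 2 (edgeR adjusted p = 0.0178) and MAFK without FUCO-2 replicate 3 (edgeR adjusted p = 0.0201). FOSB also passed in a fit of the 2 groups only (edgeR adjusted p = 0.00258). The number of the 10 genes that passed was lowest, at 3, without FUCO-1 replicate 1.

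The comparison with Con shows where the treated cells stood relative to cells that never received FFA. With FUCO-0.5, FOSB, JUN, JUNB, JUND, ATF3 and MAFF were below Con, 6 of the 10 genes against 11.4% of all genes, and with FUCO-1 FOS, FOSB, JUN, JUNB, JUND and ATF3 were, against 10.1%. ATF3 was 2.63-fold below Con with FUCO-0.5 (log2 fold change −1.40, SE 0.13, edgeR adjusted p = 2.87e-08) and 3.26-fold with FUCO-1 (log2 fold change −1.71, SE 0.13, edgeR adjusted p = 1.88e-09). JUND, which had not passed the test between Model and Con, was below Con with log2 fold changes of −0.82 (SE 0.12, edgeR adjusted p = 1.47e-05) and −0.88 (SE 0.12, edgeR adjusted p = 7.49e-06). JUN stood at −0.44 (SE 0.10, edgeR adjusted p = 0.00348) and −0.65 (SE 0.11, edgeR adjusted p = 8.76e-05), and JUNB at −0.77 (SE 0.13, edgeR adjusted p = 0.000141) and −0.65 (SE 0.13, edgeR adjusted p = 0.00106). FOSB stood at −0.75 (SE 0.23, edgeR adjusted p = 0.0189) and −0.98 (SE 0.23, edgeR adjusted p = 0.00384), and FOS at −0.41 (SE 0.15, edgeR adjusted p = 0.0622) and −0.55 (SE 0.16, edgeR adjusted p = 0.0139). MAFF stood at −0.57 (SE 0.17, edgeR adjusted p = 0.0141) and −0.44 (SE 0.16, edgeR adjusted p = 0.066). MAFK lay at −0.13 and 0.075, with 95% intervals of −0.39 to 0.13 and −0.18 to 0.33, and FOSL1 and FOSL2 did not pass at either dose. With FUCO-2, JUND (log2 fold change −0.65, SE 0.12, edgeR adjusted p = 0.000195) and ATF3 (log2 fold change −0.49, SE 0.12, edgeR adjusted p = 0.00503) were below Con, where 11.9% of all genes were, and FOSL1 (log2 fold change 2.16, SE 0.33, edgeR adjusted p = 2.62e-05) and MAFK (log2 fold change 0.40, SE 0.12, edgeR adjusted p = 0.02) were above it, where 13.0% were. FOSL1 was 4.46-fold above Con.

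**Figure D3:**
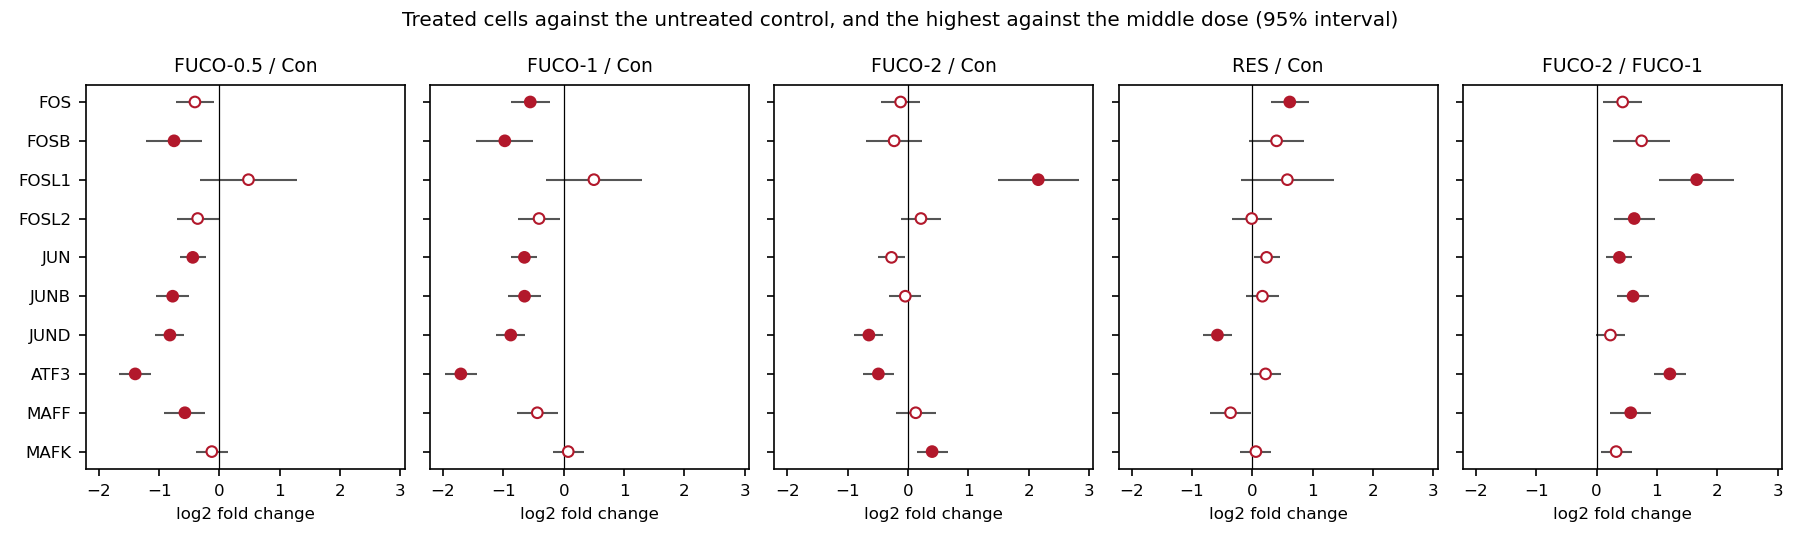
log2 fold change of the 10 genes in each treated group against Con, and in FUCO-2 against FUCO-1, with 95% intervals, filled where the edgeR test was passed. ATF3 lies left of 0 at every dose of FUCO against Con, FOSL1 lies at 2.16 with FUCO-2, and all 10 points lie right of 0 in FUCO-2 against FUCO-1.

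Several of the calls against Con rested on 1 library or on the setting. With FUCO-0.5, FOSB was lost without Con replicate 2 or 3 or FUCO-0.5 replicate 3 (edgeR adjusted p from 0.0819 to 0.149) and in a fit of the 2 groups only (edgeR adjusted p = 0.0626), and MAFF without FUCO-0.5 replicate 1 (edgeR adjusted p = 0.0747), Con replicate 1 (−0.37, adjusted p = 0.105) or the 4 libraries that stand apart (0.0614). FOS passed as lower without Con replicate 1, FUCO-0.5 replicate 1, or FUCO-2 replicate 1 or 2 (edgeR adjusted p from 0.0126 to 0.0457) and without the 4 libraries (−0.54, adjusted p = 0.0145). With FUCO-1, FOS was lost without Con replicate 2 or 3 or FUCO-1 replicate 2 (edgeR adjusted p from 0.0578 to 0.0924), FOSL2 passed as lower without FUCO-1 replicate 2 (edgeR adjusted p = 0.0484) and MAFF without FUCO-1 replicate 2 or FUCO-2 replicate 2 (edgeR adjusted p from 0.0299 to 0.0392). MAFF also passed as lower with FUCO-1 in a fit of the 2 groups only (edgeR adjusted p = 0.0477). With FUCO-2, ATF3 was lost without Con replicate 1 (−0.31, adjusted p = 0.0505 by edgeR) and without the 4 libraries that stand apart (−0.19, adjusted p = 0.15), and MAFK without Con replicate 2 or 3 or FUCO-2 replicate 1 (edgeR adjusted p from 0.0502 to 0.166, with a log2 fold change of 0.23 in the last) and without the 4 libraries (0.25, adjusted p = 0.113) and in a fit of the 2 groups only (edgeR adjusted p = 0.062). FOSB passed as lower without Con replicate 1 (−0.52, adjusted p = 0.0429 by edgeR), and JUN without FUCO-0.5 replicate 2 or FUCO-2 replicate 1 or 3 (edgeR adjusted p from 0.031 to 0.0491).

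With RES, MAFF, MAFK, ATF3, JUND and JUN were lower than in the Model, 5 of 10 genes in a comparison where 25.1% of all genes passed as lower. MAFF had a log2 fold change of −0.77 (SE 0.16, edgeR adjusted p = 0.00032), MAFK of −0.58 (SE 0.12, edgeR adjusted p = 0.000359) and ATF3 of −0.45 (SE 0.12, edgeR adjusted p = 0.00372). JUND followed with −0.34 (SE 0.12, edgeR adjusted p = 0.0168) and JUN with −0.30 (SE 0.10, edgeR adjusted p = 0.0199). No overlap with the Model was found for these 5 genes, nor for 64.0% of all genes. FOS was at 461 ± 82.7 CPM with RES against 404 ± 51.8 in the Model (log2 fold change 0.19, 95% interval −0.13 to 0.51), and FOSB, JUNB, FOSL1 and FOSL2 did not pass either, with intervals of −0.70 to 0.22, −0.16 to 0.38, −0.79 to 0.62 and −0.61 to 0.039. Against Con, FOS was higher with RES (log2 fold change 0.62, SE 0.15, edgeR adjusted p = 0.00136), where 28.8% of all genes passed as higher, and JUND lower (log2 fold change −0.58, SE 0.12, edgeR adjusted p = 0.000159), where 28.5% passed as lower. The summed level of the 9 hepatocyte markers was 15164 to 15573 CPM with RES, 51948 to 52424 in the Model and 62626 to 70524 in Con, and 35082 to 39385 with FUCO-2. This sum weighs the most abundant markers most. Over all libraries ALB ran from 7411 to 43307 CPM, SERPINA1 from 2216 to 3524 and HNF4A from 227 to 377. The part of the shift in the sum in the results with RES and FUCO-2 was not tested.

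With RES, JUN was lost against the Model without Model replicate 1 or RES replicate 1 or 3 (edgeR adjusted p from 0.0501 to 0.0872) and JUND without Model replicate 1 or RES replicate 1 (edgeR adjusted p = 0.113 and 0.06). Against Con, JUN passed as higher without Con replicate 1, FUCO-0.5 replicate 1 or 2, FUCO-2 replicate 1 or 2 or RES replicate 3 (edgeR adjusted p from 0.00893 to 0.0497), ATF3 without Con replicate 1 (0.39, adjusted p = 0.007 by edgeR), FOSB without Con replicate 3 (0.64, adjusted p = 0.0282 by edgeR) and FOSL1 without RES replicate 3 (0.90, adjusted p = 0.0381 by edgeR). MAFF passed as lower without Con replicate 2 or 3, FUCO-2 replicate 2 or RES replicate 1 (edgeR adjusted p from 0.027 to 0.037). In a fit of the 2 groups only, FOSB passed as lower than in the Model (edgeR adjusted p = 0.0357) and JUN as higher than in Con (edgeR adjusted p = 0.0453). Without the 4 libraries that stand apart, JUN, JUNB and ATF3 passed as higher too (edgeR adjusted p = 0.00112, 0.0203 and 0.00062).

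Other bZIP genes supply alternative partners (relatives of BATF, JDP2, ATF2, CREB, MAF, BACH and NFE2), and few of them passed the test at the lower doses of FUCO. Of 17 tested of 19 listed, 1 passed as higher and 2 as lower in the Model against Con, 1 as lower at 0.5 μM, none at 1 μM, 4 as higher and 2 as lower at 2 μM and 3 as higher and 5 as lower with RES, with medians of 0.00, −0.03, −0.10, 0.16 and 0.04. Over all genes, 8.43% passed as higher and 9.12% as lower in the Model against Con. Against the Model these shares were 0.289% and 1.16% at 0.5 μM, 0.893% and 2.32% at 1 μM and 10.8% and 9.71% at 2 μM. With RES they were 24.4% and 25.1%. MAFG, the remaining small MAF gene, passed as lower at 0.5 μM (log2 fold change −0.37, SE 0.084, edgeR adjusted p = 0.0209). It did not pass at 1 μM (−0.069, SE 0.083, edgeR adjusted p = 0.74) and passed as higher at 2 μM (0.30, SE 0.083, edgeR adjusted p = 0.013). With RES, MAF, a large MAF protein, fell from 83.1 ± 8.82 to 9.77 ± 2.28 CPM (log2 fold change −3.09, SE 0.14, edgeR adjusted p = 1.01e-14).

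Among 22 genes for kinases and factors upstream of AP-1 (SRF, MRTF and ELK factors, MAP kinases and their activators, RSK kinases and CREB1), none passed at 0.5 or 1 μM FUCO. Over all genes, 1.45% passed in either direction at 0.5 μM and 3.21% at 1 μM, shares at which few of 22 would pass. In the Model against Con, ELK3 was higher (log2 fold change 0.34, SE 0.11, edgeR adjusted p = 0.0421) and ELK4 lower (log2 fold change −0.34, SE 0.090, edgeR adjusted p = 0.011). At 2 μM, MAP2K1 (MEK1) was higher (log2 fold change 0.26, SE 0.071, edgeR adjusted p = 0.0106) and MAPK8 (JNK1) lower (log2 fold change −0.32, SE 0.10, edgeR adjusted p = 0.022). With RES, 2 of the 22 were higher and 5 lower, the latter including MAPK7, MAPK3 and RPS6KA3. Over all genes, 24.4% passed as higher and 25.1% as lower with RES. The medians of these 22 genes were −0.01, −0.01, 0.00, 0.05 and −0.09 in the order Model, FUCO-0.5, FUCO-1, FUCO-2 and RES, the first against Con and the others against the Model. Their mRNA levels do not measure kinase activity.

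Textbook AP-1 target genes, of which 18 of 27 listed were tested, split by gene. In the Model against Con, 4 passed as higher and 1 as lower, against 8.43% and 9.12% of all genes. CXCL8 (the chemokine interleukin-8) rose from 50.4 ± 17.5 to 248 ± 48.3 CPM (log2 fold change 2.30, SE 0.31, edgeR adjusted p = 9.75e-06), and EDN1 (endothelin) and the cytokine LIF rose by 1.01 (SE 0.22, edgeR adjusted p = 0.00204) and 0.87 (SE 0.22, edgeR adjusted p = 0.00631) on the log2 scale. At 0.5 μM none was higher and 3 were lower, namely CXCL8 (log2 fold change −1.17, SE 0.29, edgeR adjusted p = 0.0381), LIF (log2 fold change −1.12, SE 0.22, edgeR adjusted p = 0.00509) and EDN1 (log2 fold change −0.92, SE 0.22, edgeR adjusted p = 0.0233). At 1 μM 2 were higher and 3 lower, the latter being CXCL8, EDN1 and LIF. Over all genes, 0.289% passed as higher and 1.16% as lower at 0.5 μM, and 0.893% and 2.32% at 1 μM. At 2 μM 4 were higher and 2 lower, against 10.8% and 9.71% of all genes. HMOX1 (heme oxygenase) rose from 23.7 ± 1.71 to 79.7 ± 16.3 CPM (log2 fold change 1.75, SE 0.14, edgeR adjusted p = 5.67e-09), and EDN1 fell from 9.10 ± 2.08 to 5.56 ± 1.19 (log2 fold change −0.71, SE 0.21, edgeR adjusted p = 0.0202). CXCL8 (−0.34, SE 0.29, edgeR adjusted p = 0.439) and LIF (0.24, SE 0.20, edgeR adjusted p = 0.422) did not pass at 2 μM. The metallothionein MT2A, whose reads can match its paralogs, had 31.0 ± 11.7 CPM at 2 μM and 4.72 ± 2.01 at 1 μM. It had 0.808 ± 0.324 CPM in the Model and 0.0373 ± 0.0324 in Con, where it had the largest change of the list (log2 fold change 4.18, SE 1.10, edgeR adjusted p = 0.00936) at very low counts. With RES 6 of the 18 were higher and 7 lower, against 24.4% and 25.1% of all genes. The medians in the order above were 0.20, −0.11, −0.15, 0.18 and −0.07.

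Genes of the integrated stress response, a pathway that also induces ATF3 through ATF4, were set beside ATF3. In the Model against Con none of 10 passed the test as higher and 5 passed as lower, against 8.43% and 9.12% of all genes. TRIB3 was at −0.63 (SE 0.083, edgeR adjusted p = 8.24e-06) and DDIT4 at −0.53 (SE 0.12, edgeR adjusted p = 0.00324), while ATF3 rose. PPP1R15A was at 0.18 (SE 0.073, edgeR adjusted p = 0.087) and did not pass. At 0.5 μM 6 were lower and at 1 μM 4 lower and 1 higher than in the Model. PPP1R15A (GADD34) fell with ATF3, with log2 fold changes of −1.16 (SE 0.075, edgeR adjusted p = 1.73e-10) and −1.32 (SE 0.075, edgeR adjusted p = 9.4e-12), as did DDIT3 (CHOP) with −0.87 (SE 0.12, edgeR adjusted p = 3.5e-05) and −0.64 (SE 0.11, edgeR adjusted p = 0.00121). At 2 μM 4 were higher, led by DDIT4 (log2 fold change 0.94, SE 0.12, edgeR adjusted p = 6.21e-06), and 1 lower, PPP1R15A (log2 fold change −0.44, SE 0.073, edgeR adjusted p = 0.000149), and with RES 6 were higher and none lower, led by DDIT4 (log2 fold change 0.93, SE 0.12, edgeR adjusted p = 6.36e-07) and CHAC1 (log2 fold change 0.90, SE 0.11, edgeR adjusted p = 2.61e-07), in a comparison where ATF3 fell. Over all genes, 24.4% passed as higher and 25.1% as lower with RES. The medians of the stress response genes were −0.31, −0.40, −0.19, 0.18 and 0.65. Against Con, all 10 passed as lower with FUCO-0.5, and 8 as lower and none as higher with FUCO-1. Over all genes, 11.4% and 10.1% passed as lower there, and ATF3 was below Con in both. ATF4 was at −0.29 in the Model against Con and −0.29 at 0.5 μM (SE 0.063 in each, edgeR adjusted p = 0.00215 and 0.0159). Levels of mRNA do not measure the activity of the pathway, and its part in the change of ATF3 was not tested.

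Immediate early genes outside the bZIP family, such as EGR, NR4A, KLF and DUSP genes, mostly rose with FFA and fell with FUCO. Of 21 tested of 24 listed, 16 were higher and 1 lower in the Model against Con, 19 lower and none higher at each of 0.5 and 1 μM, and 16 lower and 1 higher at 2 μM. The medians were 0.60, −1.28, −1.29 and −0.53. EGR2 had the largest change among those that passed in each of these comparisons, with log2 fold changes of 1.30, −2.85, −3.53 and −2.16. KLF2 fell from 45.7 ± 3.47 to 6.88 ± 0.918 CPM with FUCO-1 (log2 fold change −2.74, SE 0.19, edgeR adjusted p = 4.35e-10) and CCN1 from 304 ± 11.0 to 115 ± 17.3 with FUCO-0.5 (log2 fold change −1.40, SE 0.090, edgeR adjusted p = 1.73e-10). With RES 5 of the 21 were higher and 6 lower than in the Model, against 24.4% and 25.1% of all genes, with a median of −0.09. Among them were KLF4 (log2 fold change 1.52, SE 0.28, edgeR adjusted p = 7.07e-05) and PLK2 (log2 fold change −1.17, SE 0.14, edgeR adjusted p = 2.85e-07). Between 1 and 2 μM 19 of the 21 were higher at 2 μM and none lower, where 4.07% of all genes passed as higher and 2.23% as lower. Of the 18 AP-1 targets 7 were higher, and of the 10 stress response genes 8, with none lower. The medians in this order were 0.56, 0.44 and 0.54. These lists were chosen with results of these libraries known.

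**Figure D4:**
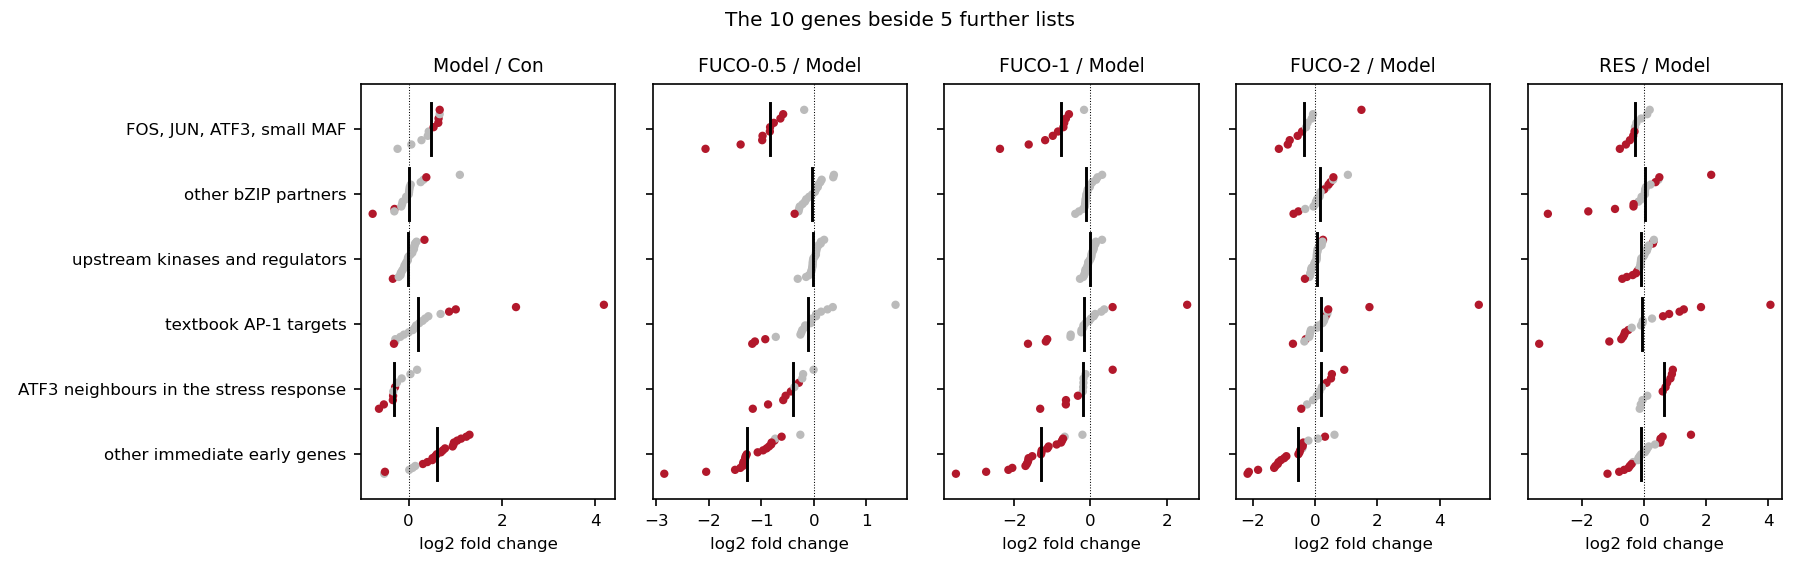
log2 fold changes of the 10 genes and of the 5 further lists in the Model against Con and in each treated group against the Model, each on its own horizontal scale. Points are genes, red where the edgeR test was passed, and bars are medians. At 0.5 and 1 μM FUCO the 10 genes (medians −0.84 and −0.78) and the other immediate early genes (−1.28 and −1.29) lie left of 0, while the medians of the kinases and regulators lie at −0.01 and 0.00.

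The genes whose levels were most like those of the 10 genes across the 18 libraries were in part other immediate early genes. The measure was Pearson's r of log2 CPM among 13076 genes with a mean of at least 1 CPM, given as a description, since the libraries fall into 6 groups and the value mostly follows the differences between these. FOS was most like GADD45B (r = 0.939), FOSB (0.934) and DUSP6 (0.905), and FOSB most like FOS, CSRNP1 (0.872) and GADD45B (0.866). JUN was most like EGR2 (0.967), KLF2 (0.956) and DUSP1 (0.950), JUNB like UBALD2, PPP1R15A and IER2 (0.897, 0.894 and 0.890), and ATF3 like PPP1R15A (0.954), EGR2 (0.953) and MIRLET7A1HG (0.942). JUND stood closest to KRT18, UBALD1 and SPAG7 (0.928, 0.894 and 0.886). MAFF stood closest to AMOTL2, TNFRSF12A and ANKRD1 (0.870, 0.850 and 0.833), MAFK to KRT17, FOSL2 and TAGLN (0.816, 0.795 and 0.752), and FOSL2 to BBC3, KRT17 and SRF (0.834, 0.810 and 0.797). Within the 10 genes, the r of FOSL1 with the other 9 ran from −0.199 to 0.427, and its nearest genes were AMZ1, RBM24 and TEAD4 (0.865, 0.859 and 0.846).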

How the data were processed

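RNA-seq counts of 18 Hep3B libraries in 6 groups of 3, assigned by title, were used. The authors deposited featureCounts read counts per gene without normalization, made from fastp-trimmed reads that STAR had placed on GRCh38.p14. Strand use and the treatment of reads with several matches are not given in the sources used here. Library totals ran from 16916688 to 23083498. Reads carry no molecular identifiers.

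All 18 libraries were fitted in R 4.3.3 with edgeR 4.0.16 (filterByExpr with a minimum count of 10 and a minimum total of 15, TMM, quasi-likelihood test, 1 term per group, prior count 0.125), and p-values were Benjamini-Hochberg adjusted over 14557 genes. The tested genes held at least 99.9% of the counts of each library. A gene passed the test at an adjusted p under 0.05, and DEGs also had an absolute log2 fold change over 1. DESeq2, the tool of the study, was run as an alternative in release 1.42.0, which is not the release the study names, beside 2 groups only, RLE factors, other filters, a prior count of 2, a replicate block and leaving out each library. Leaving out 4 libraries together, or 3 of them with FUCO-0.5 replicate 2 kept, was chosen after the data were seen. The fit was tested on simulated counts with a common spread for all genes and no libraries that stand apart. It therefore does not show how such libraries affect the calls.

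The 10 genes and the 5 gene lists were chosen with earlier results of these data known. A gene of the AP-1 target list and a hepatocyte marker are not reported here and were left out of the counts, medians and sums of their lists. All 10 genes were tested in every comparison, though a value is not printed for each gene in each. Most genes named from a list are some of the up to 4 with the largest change among those that passed. Values of MAFG, ATF4, PPP1R15A, CXCL8 and LIF are also given in comparisons where they were not. For each of the 10 genes the 3 genes with the highest correlation are named. Transcript lengths are those of GENCODE 44 canonical transcripts, in place of RefSeq lengths, and promoters and positions are from RefSeq tables of GRCh38.p14. Counting error limits FOSL1, which had at most 91 counts in a library.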

Additional observations from a re-analysis of the deposited data

Results flagged for a closer look

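The effects of FUCO at 1 and 2 μM on 6 of the 10 genes differed by a direct test of FUCO-2 against FUCO-1. On the log2 scale the level at 2 μM was higher by 1.66 for FOSL1, 1.21 for ATF3, 0.62 for FOSL2, 0.60 for JUNB, 0.57 for MAFF and 0.38 for JUN (adjusted p = 0.00149, 3.74e-06, 0.025, 0.00658, 0.0392 and 0.0313 from edgeR's quasi-likelihood test). The log2 fold changes against the Model at 1 and 2 μM were −2.37 and −1.16 for ATF3, −0.71 and −0.10 for JUNB, −0.69 and −0.062 for FOSL2, −0.85 and −0.28 for MAFF, −1.19 and −0.81 for JUN, and −0.17 and 1.49 for FOSL1. The calls on FOSL2, JUN and MAFF were lost without single libraries (adjusted p of up to 0.141 without FUCO-1 replicate 1 for FOSL2, 0.119 without FUCO-2 replicate 3 for JUN and 0.289 without FUCO-2 replicate 2 for MAFF by edgeR), that on FOSL2 also without the 4 libraries that stand apart (edgeR adjusted p = 0.089), that on MAFF with DESeq2 (adjusted p = 0.0911) and that on JUN in a fit of the 2 groups only (edgeR adjusted p = 0.0532). Those on FOSL1, ATF3 and JUNB held in every alternative, except that of JUNB under a fold threshold. Beside these values, the summed hepatocyte markers were at 46182 to 48702 CPM with FUCO-1 and 35082 to 39385 CPM with FUCO-2, and their part in the differences was not tested.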

How the results depend on the processing

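Of 57 results that passed the test, 39 kept the call in all alternatives that used no fold threshold, and of 53 that did not, 32 stayed uncalled in all of them. Leaving out 1 library gave 3 to 6 of the 10 genes in Model against Con (4 with all libraries), 7 to 9 for FUCO-0.5 and FUCO-1 against the Model (9), 4 to 7 for FUCO-2 (6), 3 to 5 for RES (5), 5 to 7 for FUCO-0.5 and FUCO-1 against Con (6), 3 to 5 for FUCO-2 against Con (4), 2 to 4 for RES against Con (2), 0 between 0.5 and 1 μM and 3 to 7 for FUCO-2 against FUCO-1 (6). A fold threshold left 0, 2, 3, 2 and 0 genes for Model against Con and for the 3 rising doses of FUCO and then RES against the Model, 1, 1, 1 and 0 for the 4 treated groups against Con, and 2 for FUCO-2 against FUCO-1. Without a filter on low counts 7 genes passed in Model against Con and 6 in RES against Con, and without the 4 libraries that stand apart 2 passed in FUCO-2 against Con and 5 in RES against Con, as without 3 of them (FUCO-0.5 replicate 2 kept); the cause was not tested. With these 3 left out the calls were those without all 4, apart from FOSL2 with FUCO-0.5 and JUNB with FUCO-2 against the Model, which were then as with all libraries. DESeq2 passed 3, 9, 9, 6 and 5 genes for Model against Con and the treated groups against the Model, and FOSB was not among those of Model against Con (adjusted p = 0.122). It passed 5 for FUCO-2 against FUCO-1, without MAFF, and 5 for FUCO-2 against Con, where JUN was added (adjusted p = 0.0474).

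No called result changed sign, and 15 uncalled results did when 1 library was left out. Their log2 fold changes without 1 library ran from −0.039 to 0.16 for JUNB in Model against Con. Against the Model they ran from −0.47 to 0.13 for FOSL1 with FUCO-0.5, −0.18 to 0.068 and −0.28 to 0.039 for FOSL2 and JUNB with FUCO-2, and −0.45 to 0.23 and −0.023 to 0.18 for FOSL1 and JUNB with RES. Against Con they ran from −0.26 to 0.069, −0.52 to 0.014, −0.22 to 0.10 and −0.083 to 0.33 for FOS, FOSB, JUNB and MAFF with FUCO-2 and −0.11 to 0.056 for FOSL2 with RES, which was at 0.055 without the 3 libraries and at 0.054 without the 4. Between 0.5 and 1 μM they ran from −0.30 to 0.30, −0.20 to 0.12, −0.13 to 0.094 and −0.022 to 0.25 for FOSL1, FOSL2, JUND and MAFF, and JUNB was at −0.017 without the 4 libraries.

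No clear pairing of libraries by replicate number was seen, though these values cannot exclude it and no chance level was computed. Over 45 pairs of libraries with the same number, the correlation of deviations from group means ran from −0.204 to 0.194 (median 0.0239), 7 pairs were over 0.1, and 7 of 18 libraries correlated best with a library of their own number. With a replicate block 4, 9, 9, 6 and 5 genes passed in Model against Con and in the 4 treated groups against the Model by rising dose and then RES, 6, 7, 5 and 3 for the treated groups against Con, 0 between 0.5 and 1 μM and 7 for FUCO-2 against FUCO-1. The added calls were on MAFF (FUCO-1 against Con), JUN (FUCO-2 and RES against Con) and FOSB (FUCO-2 against FUCO-1), and no other call changed.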

Other observations

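By CPM per kb, FOS made up 79.0% ± 3.88 of the FOS family in Con, 75.8% ± 2.73 in the Model and 81.1% ± 1.69 in RES. At the rising doses of FUCO its share was 81.9% ± 1.12, 82.4% ± 0.565 and 78.5% ± 1.87. The Con libraries (76.4 to 83.5%) spanned those of FUCO-1 (82.0 to 83.1%). The share of FOSL1 in the family was 0.307% ± 0.0709 in Con, 0.348% ± 0.114 in the Model and 1.58% ± 0.736 with FUCO-2 (SD, n = 3). With FUCO-2, FOSL1 stood at 2.45 CPM per kb and FOSL2 at 1.38 without overlap, the reverse of their order in Con and the Model.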
